A study of Homo sapiens with 2 samples.

Results

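The nuclear genes of respiratory complex I were followed in direct RNA reads of GM12878, a lymphoblastoid line made from human B cells with Epstein-Barr virus. The members were taken by symbol: 36 NDUF genes of the deposited abundance table, out of 16645 annotated genes with at least 1 read. All 36 were found, and all had known reads. In direct RNA sequencing (Oxford Nanopore) each RNA strand enters the pore from its 3′ end, so 1 read is 1 RNA strand and no PCR is involved. The study holds 1 group of 2 libraries, replicate 1 and replicate 2, both of GM12878 with no treatment named, and both from column-purified RNA that was then depleted and reverse transcribed against secondary structure. Nothing in the labels says that the replicates came from separate cultures. Each test below compares the reads of 2 libraries and allows for counting error only. It does not measure the spread between libraries, so a difference that passes may be technical. The tests say nothing of conditions.

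Complex I, NADH:ubiquinone oxidoreductase, is the entry point of the mitochondrial respiratory chain. An arm in the matrix oxidises NADH at a flavin and passes the electrons along iron-sulfur clusters to ubiquinone, and an arm in the inner membrane pumps protons. The nucleus encodes the core subunits of the matrix arm and all accessory subunits, and mitochondrial DNA encodes the core subunits of the membrane arm. Here the members were ordered as 6 core subunits (NDUFV1, NDUFV2 and NDUFS1 of the NADH-binding end, and NDUFS3, NDUFS7 and NDUFS8 near the ubiquinone site), 9 accessory subunits of the matrix arm, 9 of the proximal membrane arm and 12 of the distal membrane arm. They lie on 18 chromosomes, with 6 on chromosome 19.

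Several members had reads in annotated models that code for proteins of different length. For 3 of them, NDUFB11, NDUFB6 and NDUFV3, the bases that tell those models apart are shown here because isoform counts given later rest on them. They were read from the GENCODE 29 transcripts (GRCh38) and run 5′ to 3′ on the transcript's strand. In NDUFB11, the capitals of the first line are the 30 bases at the end of exon 2 (chrX:47142584-47142613, minus strand, 10 codons) that NDUFB11-201 keeps and NDUFB11-202 lacks. The second line shows the same place in NDUFB11-202, all in lower case. In NDUFB6, the capitals are exon 2 (93 bases, 31 codons, chr9:32570960-32571052, minus strand), which NDUFB6-202 skips, and exon 3 (45 bases, 15 codons, chr9:32558910-32558954, minus strand), which NDUFB6-201 skips. In NDUFV3, the capitals are the first 36 bases after the end of exon 2: in NDUFV3-202 they begin an exon of 1095 bases, or 365 codons (chr21:42903182-42904276, plus strand), and in NDUFV3-201 they begin the last exon. All 4 stretches are whole numbers of codons.
NDUFB11-201 insert: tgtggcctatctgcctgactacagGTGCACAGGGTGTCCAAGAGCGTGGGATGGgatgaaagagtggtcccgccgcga
NDUFB11-202 junction: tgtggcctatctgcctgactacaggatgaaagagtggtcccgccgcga
NDUFB6-203 exon 2: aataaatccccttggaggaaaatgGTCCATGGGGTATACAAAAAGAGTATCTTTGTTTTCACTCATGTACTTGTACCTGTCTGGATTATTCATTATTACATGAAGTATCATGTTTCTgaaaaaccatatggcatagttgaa
NDUFB6-203 exon 3: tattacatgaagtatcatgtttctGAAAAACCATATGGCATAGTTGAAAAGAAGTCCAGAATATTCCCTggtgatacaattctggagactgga
NDUFV3-202 junction: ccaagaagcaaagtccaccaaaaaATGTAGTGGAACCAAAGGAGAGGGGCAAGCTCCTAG
NDUFV3-201 junction: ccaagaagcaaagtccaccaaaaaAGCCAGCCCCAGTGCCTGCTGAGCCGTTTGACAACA

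Complex I transcripts were abundant in both libraries. The 36 genes took 9137 of 1360368 reads in replicate 1, or 0.672% (95% Wilson interval 0.658 to 0.686%), and 9324 of 1510998 reads in replicate 2, or 0.617% (0.605 to 0.630%), a mean of 0.644% ± 0.0386 (SD, n = 2). These intervals, like all others given here, cover counting error only. Gene levels are given as CPM, reads scaled to a common library total, where 1 read was worth 0.735 CPM in replicate 1 and 0.662 CPM in replicate 2; since a read is a strand, CPM is already a count of strands and was not divided by length. The median member stood at 168 CPM in replicate 1 and 151 CPM in replicate 2. All 36 lay above the median mean level of 22.1 CPM of the 10634 annotated genes with at least 10 reads, and 34 lay above the upper quartile of 54.1 CPM.

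Among the core subunits, median levels were 183 CPM in replicate 1 and 176 CPM in replicate 2. NDUFV1, which holds the flavin, had 243 and 281 CPM, and NDUFV2, its iron-sulfur partner, had 251 and 195 CPM. NDUFS8 and NDUFS7, iron-sulfur proteins on the way to ubiquinone, had 207 and 183 CPM and 159 and 170 CPM, and NDUFS3 beside them had 159 and 130 CPM. NDUFS1, the large iron-sulfur subunit of the NADH-binding end, was the lowest core gene in both libraries, with 58.1 and 57.6 CPM (57.8 ± 0.350, SD, n = 2). NDUFS1 was thus below the 5 other core genes in each library.

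Accessory subunits of the matrix arm had median levels of 163 and 140 CPM in replicates 1 and 2. NDUFA2, a small protein with a thioredoxin-like fold, had 208 and 216 CPM, and NDUFS6, a zinc-binding subunit, had 236 and 168 CPM. The group also held the 2 lowest of all 36 members, NDUFV3 at the NADH-binding end with 40.4 and 41.7 CPM (41.1 ± 0.894) and NDUFA5 with 27.2 and 50.3 CPM (38.7 ± 16.3, n = 2 each). Their order was not the same in the 2 libraries. NDUFS4, NDUFA6, NDUFA7, NDUFA9 and NDUFA12 lay between 96.6 and 187 CPM in either library.

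In the proximal membrane arm the levels fell into a high and a lower set. NDUFS5, a cysteine-rich subunit on the intermembrane side, was the highest member of all, with 390 and 373 CPM (381 ± 12.5), followed by NDUFA11 with 322 and 314 CPM (318 ± 5.85), NDUFA13 (GRIM-19) with 302 and 312 CPM (307 ± 6.78) and NDUFA1 with 297 and 304 CPM (300.4 ± 4.8, n = 2 each). With reads as assigned, these 4 kept their order in both libraries. NDUFA11 and NDUFA13 were almost level in replicate 2, with 474 and 471 reads. The order depends on that assignment. Summed with AC011448.1, an overlapping gene described below, NDUFA13 had 374 and 426 CPM. That sum was above NDUFA11 in both libraries and above NDUFS5 in replicate 2. NDUFA10, NDUFA3, NDUFC2, NDUFA8 and NDUFC1 lay between 78.8 and 135 CPM in either library, and no gene of the lower set reached the high one.

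The distal membrane arm gave the largest summed level of the 4 groups, 2476 CPM in replicate 1 and 2203 CPM in replicate 2, over the largest number of genes. NDUFB9 had 325 and 279 CPM, NDUFB11 had 312 and 281 CPM, NDUFB8 had 268 and 260 CPM, and NDUFAB1, the mitochondrial acyl carrier protein, had 280 and 244 CPM. NDUFB6 with 89.7 and 96.6 CPM and NDUFB5 with 87.5 and 92.0 CPM were the lowest, and NDUFB1, NDUFB2, NDUFB3, NDUFB4, NDUFB7 and NDUFB10 lay between 122 and 261 CPM.

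**Figure D1:**
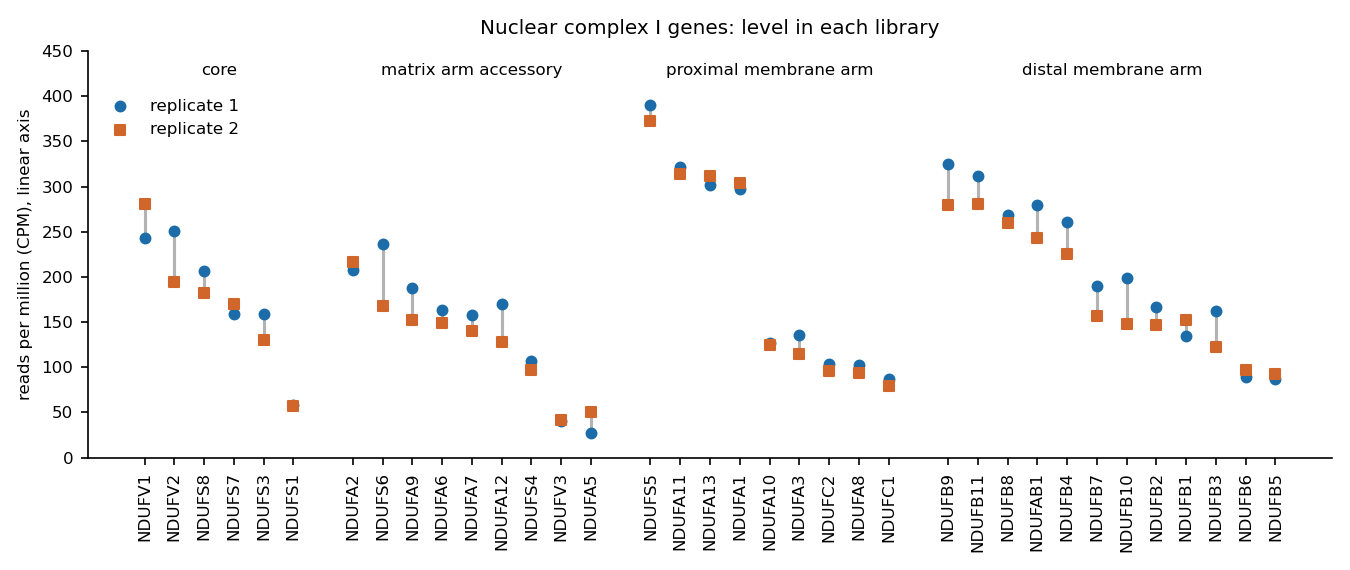
Level of each of the 36 genes in CPM (linear axis), grouped by place in the complex and ordered by mean level; circles are replicate 1, squares replicate 2, and grey lines join the 2 libraries. NDUFS5 is highest at 390 and 373 CPM, and NDUFA5 is lowest in replicate 1 at 27.2 CPM.

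Most members kept their level between the 2 libraries. The log2 ratio of replicate 2 to replicate 1 (CPM after adding 0.5 reads) lay within 0.5 of 0 for 35 of 36 members (97.2%), against 69.9% of all 10634 genes tested, whose median level is lower. The median ratio was -0.14 over the members and 0.01 over all genes, with 26 members lower and 10 higher in replicate 2; counted over known models only, the median was 0.06 over the members and -0.26 over all genes, so the members' direction depends on which models are counted. An exact binomial test (two-sided) set each gene's reads against the totals of the libraries, with Benjamini-Hochberg adjustment over the 10634 genes. At an adjusted p under 0.05, 4 of 36 members (11.1%) differed, against 5.05% of all genes, most of which had fewer reads. Without adjustment, 11 of 36 members (30.6%) had an exact p under 0.05, against 15.8% of all genes.

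NDUFS6 had 321 reads in replicate 1 and 254 in replicate 2, 236 and 168 CPM, a log2 ratio of -0.49 (adjusted exact p = 0.00249). NDUFB10, a cysteine-rich subunit of the distal arm, had 270 and 223 reads, 198 and 148 CPM, a ratio of -0.43 (adjusted exact p = 0.0278). Both were lower in replicate 2 and passed the test under every count and scaling tried. NDUFV2 had 342 and 294 reads, a ratio of -0.37 (adjusted exact p = 0.0301), but an annotated gene on the same strand, AP005263.1 (chr18:9102736-9254346, GRCh38), contains all 7 splice junctions of the NDUFV2 model with most reads. AP005263.1 had 124 and 210 reads, none of them in a known model and 89 and 185 of them in models that keep its 3′ end, and it was higher in replicate 2 (log2 ratio 0.61, adjusted exact p = 0.00652). Reads of the pair summed to 466 and 504, or 343 and 334 CPM, a ratio of -0.04 (adjusted exact p = 0.956), so the NDUFV2 difference was not there when the pair was counted together, a comparison added after seeing the data. Which of the pair each read came from was not tested.

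NDUFA13 has the same arrangement. AC011448.1 (chr19:19516227-19536076) contains all 4 junctions of its main model and had 98 and 173 reads, a log2 ratio of 0.67 (adjusted exact p = 0.00836). The sum with NDUFA13, also computed after seeing the data, was 509 and 644 reads, a ratio of 0.19 (adjusted exact p = 0.235), against 0.04 for NDUFA13 alone (adjusted exact p = 0.939). The fourth member that differed, NDUFA5, had 37 reads in replicate 1 and 76 in replicate 2, a log2 ratio of 0.88 (adjusted exact p = 0.0387). Of these reads, 18 and 45 belonged to a single-exon model that TALON, the authors' long-read program by the name of their table, marked as genomic, meaning that it lies over the gene without matching its splicing. NDUFA5-201, the 5-exon coding model, had 15 and 16 reads. Without genomic models the NDUFA5 ratio was 0.61 and it did not pass the test.

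Reads of the complex I genes matched annotated transcripts more often than reads of the table as a whole. Known models, which have the junctions of an annotated transcript, took 82.0% of the members' reads in replicate 1 (81.2 to 82.8%) and 75.1% in replicate 2 (74.2 to 76.0%), a mean of 78.6% ± 4.87 (SD, n = 2). Over all annotated genes the shares were 56.5% and 46.4%. Incomplete splice matches (ISM), which hold an unbroken part of an annotated transcript's junctions, took 10.3% and 16.1% of the members' reads, against 24.0% and 32.3% over all genes. Models that join annotated splice sites in an unannotated way (NIC) took 2.29% and 1.91%, against 4.13% and 2.90% over all genes. Models with an unannotated splice site (NNC) took 4.29% and 4.49%, against 4.38% and 3.14% over all genes. Genomic models took 1.13% and 2.37%, against 10.9% and 15.3% over all genes. The known share was lower in replicate 2 in 32 of 36 members. From replicate 1 to replicate 2 the known share was lower, and the ISM and genomic shares higher, both in the members and over all genes, while the NNC share was lower over all genes only.

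By place in the complex, known models took 58.6% and 49.3% of the reads of the core subunits, 86.3% and 76.9% in the accessory matrix arm, 84.6% and 79.1% in the proximal membrane arm, and 87.9% and 82.8% in the distal membrane arm. The core genes were the lowest of the 4 groups in both libraries. Among them NDUFS8 had 1 known read, NDUFS1 had known shares of 35.4% and 9.20%, and NDUFV1 had 56.8% and 42.8%, while NDUFV2 had 98.0% and 92.9%. In 33 of 36 members the model with most reads was a known one. The exceptions were NDUFA5, described above, NDUFS8 and NDUFC1; without these 3 the known share of the members was 85.8% and 78.7%.

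**Figure D2:**
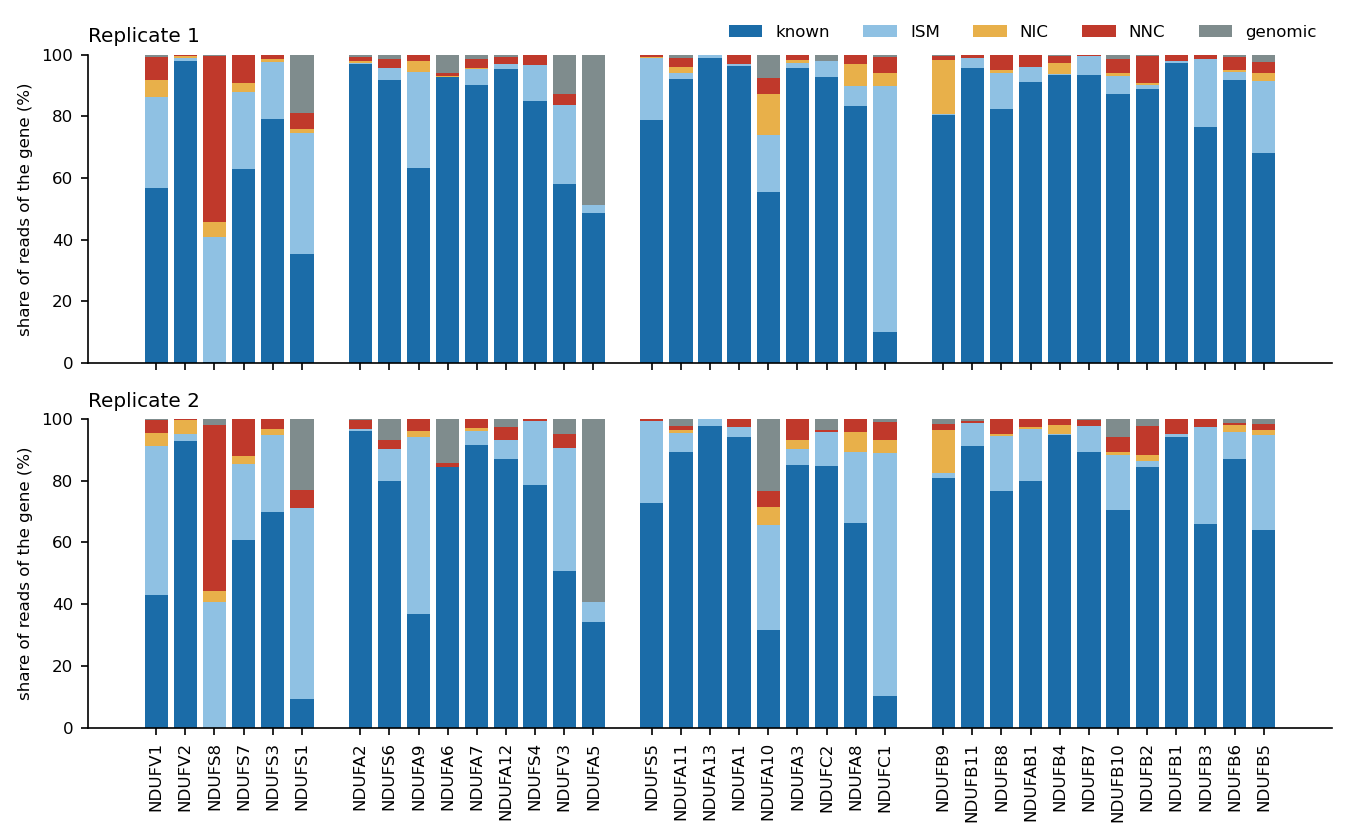
Share of each gene's reads by model category (known, ISM, NIC, NNC and genomic, stacked to 100%) in replicate 1 above and replicate 2 below, with genes in the order of the plot of levels. Known models fill most bars, while NDUFS8 is mostly NNC and ISM, NDUFC1 mostly ISM, and NDUFA5 has a genomic share of 48.6% and 59.2%.

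NDUFS8 (chr11:68030617-68036644, plus strand) had 281 reads in replicate 1 and 276 in replicate 2, of which 1 and 0 were in a known model. In replicate 2 the count of 0 allows a share of up to 1.09% (3 reads). Its main model was an NNC model of 7 exons and 805 bases, ENCODEHT000475700, with 138 and 136 reads, 49.1% and 49.3% of the gene. The annotated coding transcript NDUFS8-201 also has 7 exons and is 791 bases long. A suffix ISM of 6 exons, which keeps the 3′ end, added 73 and 56 reads. The table gives no positions for new models, so which of the splice sites is unannotated cannot be read from it.

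NDUFC1 (chr4:139266880-139302551, minus strand), a small subunit of the proximal arm, had 119 reads in each library, and 12 in each were known. Its main model was an ISM of 4 exons and 423 bases with 92 and 87 reads, 77.3% and 73.1% of the gene. TALON marks its subtype as both, which covers models that pass as prefix and as suffix. The NDUFC1 transcripts that GENCODE 29 marks as protein coding have 5 or 6 exons, so no annotated coding model has the exon number of the main one. The ISM share of NDUFC1 was 88.8% in replicate 1 and 88.7% in replicate 2 of its known and ISM reads.

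Incomplete models were more frequent in replicate 2. ISM reads made up 11.2% of the members' known and ISM reads in replicate 1 (10.5 to 11.8%) and 17.7% in replicate 2 (16.9 to 18.5%), a mean of 14.4% ± 4.6 (SD, n = 2), while over all genes they made up 29.9% and 41.0%. The median member had 5.33% and 13.8%, against 45.2% and 65.6% over all genes tested. The share was higher in replicate 2 in 33 of 36 members. By a two-sided Fisher exact test per gene, adjusted over 5320 genes with at least 10 such reads in each library, 11 of 35 members tested (31.4%) had a higher ISM share in replicate 2. Over all genes tested 30.3% did, so the members' share is near to the background. In the other direction 0 members passed this Fisher exact test, also with 0 at an unadjusted p under 0.05, and 0.169% of all genes did.

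Of the 11, 4 had a main model with 10 or more exons. NDUFS1, whose main model NDUFS1-201 has 19 exons, had an ISM share of 52.5% in replicate 1 and 87.1% in replicate 2 (adjusted Fisher exact p = 4.51e-04), and its known reads were 28 and 8. NDUFA9, a nucleotide-binding subunit with 11 exons, had 33.2% and 60.8% (adjusted Fisher exact p = 6.85e-08). NDUFA10, with 10 exons, had 25.0% and 51.6% (adjusted Fisher exact p = 1.75e-04), and NDUFV1, also with 10, had 34.3% and 53.1% (adjusted Fisher exact p = 1.65e-05).

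Among members with 3 to 5 exons, 7 passed as well, from lower shares. NDUFA8, a cysteine-rich subunit, had 7.20% and 26.0% (adjusted Fisher exact p = 6.21e-04), NDUFB10 had 5.98% and 20.3% (6.05e-05), and NDUFAB1 had 5.19% and 17.4% (2.26e-06). NDUFS6 had 3.91% and 11.4% (0.00603), NDUFB11 had 3.34% and 7.40% (0.0452), NDUFA11 had 1.94% and 6.19% (0.00934), and NDUFA1 had 0.765% and 3.36% (0.0484). NDUFS6 and NDUFB10, which passed the abundance test under every count and scaling tried, were among these 7. Whether their lower level and higher ISM share in replicate 2 are linked was not tested. NDUFA13 and NDUFV2 had low ISM shares in both libraries, 0.973% and 2.12%, and 0.888% and 2.50%, beside overlapping genes that held suffix models: 22 and 68 suffix reads for AC011448.1 and 89 and 185 for AP005263.1.

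Over the 36 members, the rank correlation (Spearman's rho) between the ISM share and the exon number of the main known model was 0.52 in replicate 1 and 0.54 in replicate 2, and with its annotated length 0.39 and 0.47. These describe genes that share a library, without a test. The 28 members with 5 or fewer exons had a median ISM share of 4.49% and 8.97%, and the 8 with 6 or more had 27.1% and 42.1%. NDUFS8 counts here with the 5 exons of NDUFS8-202, the retained-intron model that held its 1 known read, although its coding transcript has 7. Without NDUFS8, left out after seeing the data, the 27 members with 5 or fewer exons had 3.91% and 8.66%, and rho with the exon number was 0.51 and 0.53. Most incomplete models kept the 3′ end: suffix models took 79.5% of the members' ISM reads in replicate 1 and 80.9% in replicate 2 (80.2% ± 1.0, SD, n = 2), against 68.4% and 68.0% over all genes. Prefix models, which keep the 5′ end, took 3.51% and 3.93%. Members that differed from this pattern included NDUFB5, with 26 and 37 reads in 1 single-exon ISM model of neither kind. They also included NDUFC1, with 92 and 87 of its 95 and 94 ISM reads in the model marked as both.

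**Figure D3:**
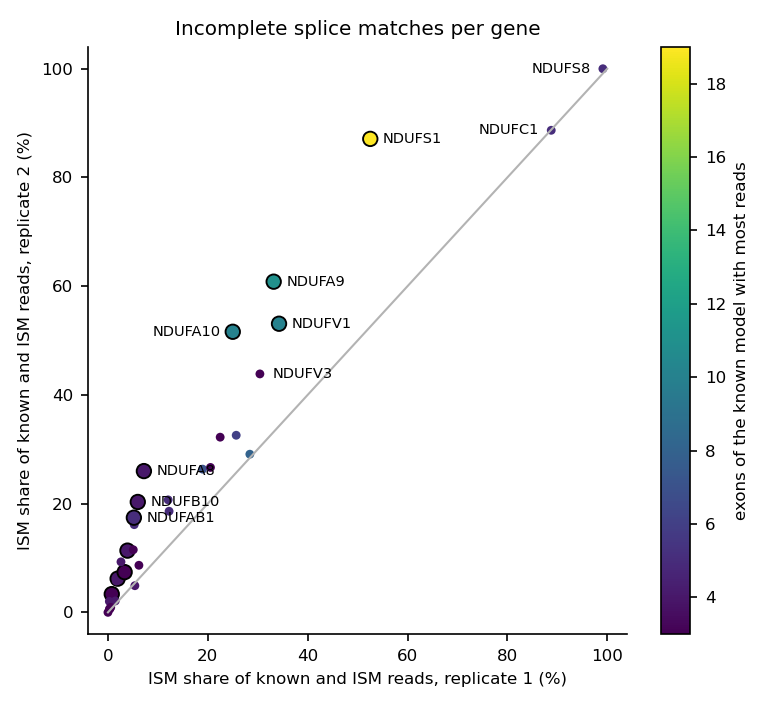
ISM share of known and ISM reads of each gene in replicate 1 (x axis) and replicate 2 (y axis), both in percent; colour gives the exon number of the known model with most reads, large ringed points passed the Fisher exact test, and the grey line marks equal shares. NDUFS1, NDUFA9 and NDUFA10 stand farthest above the line. NDUFV1 and NDUFA8, which has 4 exons, follow at almost the same distance. NDUFC1 and NDUFS8 lie near the line at the upper right, NDUFS8 coloured by the model of its 1 known read.

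Within known models, 1 model dominated most genes. Over the 34 members with at least 10 known reads in each library, the model with most reads took a median of 96.2% of the known reads in replicate 1 and 92.7% in replicate 2, against 93.5% and 90.0% over 3507 such genes. For 35 of 36 members that model is annotated as protein coding; the exception is NDUFS8, whose known reads came to 1 in all. The share of the main model was lower in replicate 2 in 25 of these 34 members and higher in 4. Over the 3507 genes it was lower in 1811 and higher in 847. By a two-sided Fisher exact test, adjusted over 2675 genes with 2 or more known models, 3 of 29 members tested (10.3%) had a lower share in replicate 2, near to the 7.78% of all genes tested. In the other direction 0 members passed this Fisher exact test, with 1, NDUFV3, at an unadjusted p under 0.05, and 1.12% of all genes did.

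NDUFB9, a distal subunit of the LYR protein family (chromosome 8), had 319 and 256 reads in its coding model NDUFB9-201, 89.6% and 75.1% of its known reads (adjusted Fisher exact p = 1.8e-05). NDUFS3-201 had 166 and 117 reads, 97.1% and 85.4% (adjusted Fisher exact p = 0.00444), and NDUFB8-201 had 292 and 274 reads, 97.0% and 90.7% (adjusted Fisher exact p = 0.0247). The reads that made the difference were in annotated models with fewer exons. NDUFB9-205 and NDUFB9-207, both annotated as retained intron, had 29 and 60 and 6 and 24 reads, NDUFB8-204, also retained intron, had 5 and 26, and NDUFS3-204 and NDUFS3-205 had 4 and 10 and 1 and 10.

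The junctions of these minor models were therefore compared with those of the main model, a comparison made after their counts were seen. In 17 members, 22 known models had no junctions other than the last ones, at the 3′ side, of the main model. Together they took 199 of the known reads in replicate 1, or 2.66% (2.32 to 3.05%), and 382 in replicate 2, or 5.45% (4.95 to 6.01%). Of the 22, 20 had more reads in replicate 2 and 1, NDUFA3-213, had fewer, while all 22 took a larger share of their gene's known reads there. Junctions were compared in the members only, so whether these counts differ from those of all genes was not tested. Annotation marks 18 of them as retained intron. The 49 known models with other junctions, in 25 members, had 273 and 242 reads, 3.64% and 3.46% of the known reads, which differ by less than their intervals (3.24 to 4.09% and 3.05 to 3.91%). Retained-intron models as a whole took 2.62% and 5.17% of the members' known reads, against 4.65% and 8.09% over all protein-coding genes, and their share was higher in replicate 2 in 17 of the 19 members with such reads.

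**Figure D4:**
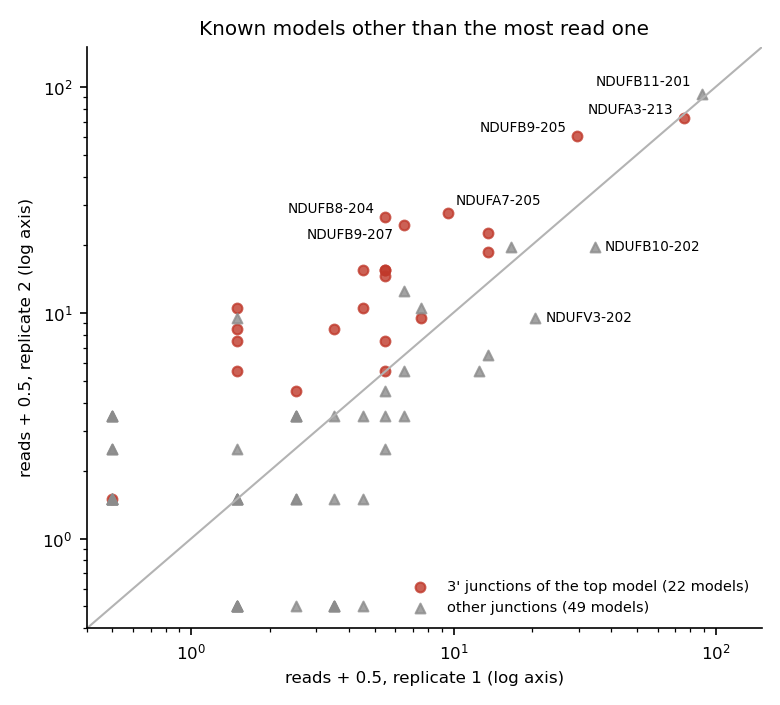
Reads of each known model other than the main one of its gene in replicate 1 and replicate 2 (reads + 0.5, log axes); red circles are 22 models whose junctions are the 3′ junctions of the main model, grey triangles are 49 models with other junctions, and the line marks equal reads. Of the red circles 20 had more reads in replicate 2, for example NDUFB9-205 with 29 and 60 reads. Such models were not counted over all genes.

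NDUFA3 was the member with the most even split between such models. NDUFA3-214, the coding model of 4 exons, had 99 and 73 reads, 56.3% and 49.7% of the known reads, and NDUFA3-213, annotated as retained intron with 3 exons, had 75 and 72, 42.6% and 49.0%. The intervals of each overlap between the libraries (48.9 to 63.4% and 41.7 to 57.6% for NDUFA3-214).

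The isoforms that change the protein, whose distinguishing bases are printed above, were at similar shares in the libraries for NDUFB11 and NDUFB6. NDUFB11-202 (153 residues, without the insert) had 317 and 296 reads, 78.3% and 76.3% of the known reads (77.3% ± 1.40, SD, n = 2), and NDUFB11-201 (163 residues, with it) had 88 and 92 reads, 21.7% and 23.7% (22.7% ± 1.40). In both libraries the model of the shorter protein had more reads. NDUFB6-203 (128 residues, with both exons) had 100 and 110 reads, 89.3% and 86.6%. NDUFB6-202 (97 residues, without exon 2) had 6 and 12 reads and NDUFB6-201 (113 residues, without exon 3) had 6 and 5, so both skipped forms were minor.

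NDUFV3 is known for a short and a long protein form. Here NDUFV3-201, the short form of 108 residues, had 12 and 23 reads, 37.5% (22.9 to 54.7%) and 71.9% (54.6 to 84.4%) of the known reads, and NDUFV3-202, the long form of 473 residues, had 20 and 9. The majority form was thus the long one in replicate 1 and the short one in replicate 2, but with 32 known reads in each library the difference did not pass the test (adjusted Fisher exact p = 0.0986). NDUFB10 also has a second coding model, NDUFB10-202 (168 residues), with 34 and 19 reads beside 188 and 133 of NDUFB10-201 (172 residues), or 14.4% and 12.1% of the known reads. Smaller coding alternatives included NDUFA2-204 (76 residues, against 99 of NDUFA2-201) with 16 and 19 reads and NDUFA12-206 (63 residues, against 145 of NDUFA12-201) with 12 and 5. They also included NDUFB5-214 (137 residues, against 189 of NDUFB5-201) with 13 and 6 reads, 16.0% and 6.74% of the known reads of NDUFB5.

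**Figure D5:**
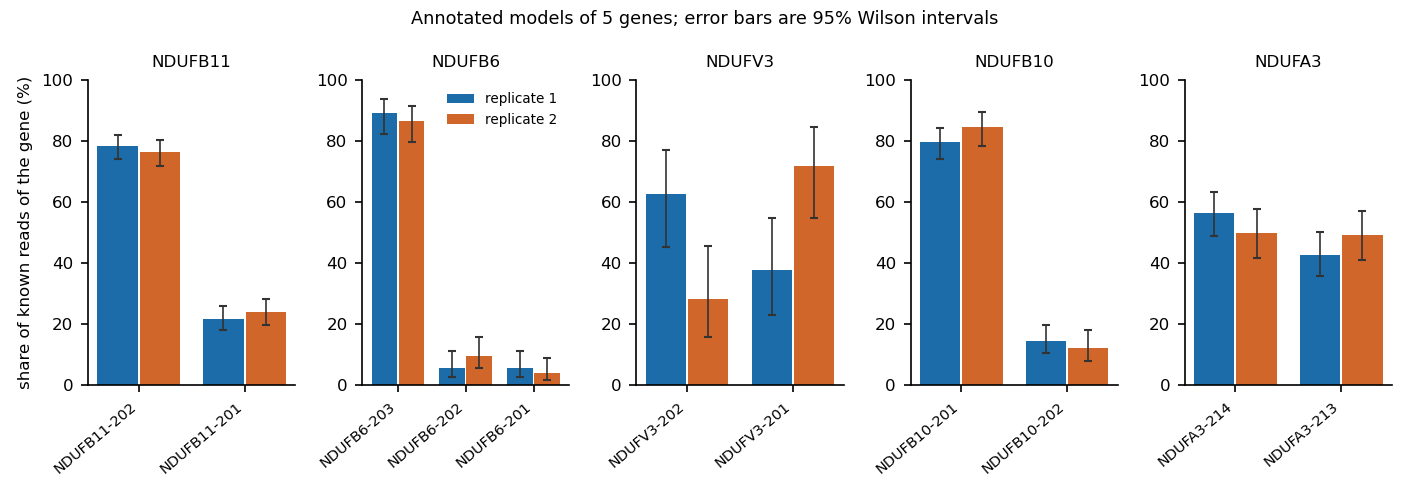
Share of the known reads of 5 genes taken by their main annotated models (percent, bars from 0), with replicate 1 in blue and replicate 2 in orange; error bars are 95% Wilson intervals. NDUFB11, NDUFB6 and NDUFB10 keep the same main model at 76.3% or more, NDUFA3 is divided almost evenly, and NDUFV3 changes its main form between the libraries within wide intervals.

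The members had 748 models in all, of which 381 (50.9%) rested on 1 read and 296 had reads in both libraries. Known models recurred most often, 85 of 108 (78.7%), followed by genomic models with 60%, ISM with 42.9%, NNC with 23.2% and NIC with 21.6%. A model with 1 read cannot recur, so this order depends on the reads per model. Models with 1 read were 13 of 108 known, 10 of 35 genomic, 121 of 261 ISM, 161 of 233 NNC and 76 of 111 NIC models. In all, 12 NIC and NNC models had at least 5 reads in each library. Beside that of NDUFS8, the most frequent was a NIC model of NDUFB9 with 4 exons and 708 bases, ENCODEHT000545617, with 74 and 55 reads, 16.7% and 13.0% of the gene. NDUFB9-201 also has 4 exons and is 711 bases long. A NIC model of NDUFA10 with 10 exons had 17 and 6 reads, and an NNC model of NDUFS7 with 7 exons had 13 and 21. The other 8 belonged to NDUFA1, NDUFA8, NDUFA11, NDUFAB1, NDUFB2, NDUFB4, NDUFB8 and NDUFV1 and had between 5 and 14 reads in a library. Genomic models had 103 and 221 reads, in 22 members; NDUFA10 had 11 and 40 in a single-exon model of 426 bases and NDUFA6 had 13 and 32 in one of 1710 bases.

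Other genes of the pathway were read from the same table. The 17 assembly factors, which build the complex without staying in it, all had reads, with a median of 43.4 CPM in replicate 1 and 34.4 CPM in replicate 2. NDUFAF8 was the highest with 151 and 130 CPM and NUBPL, which inserts iron-sulfur clusters, the lowest with 11.0 and 4.63 CPM. The exact binomial test passed 0 of the 17 after adjustment, and 5 (29.4%) had an unadjusted p under 0.05, against 15.8% of all genes; TMEM126B had the largest positive log2 ratio, 0.55, and NUBPL the largest negative one, -1.20. The 7 mitochondrially encoded subunits had 3895 and 1739 CPM in sum, or 0.389% and 0.174% of the reads. By the same exact test 5 of 7 were lower in replicate 2, while 5.05% of all genes differed in either direction. The median level of the 7 was 412 CPM, against 22.1 CPM over all genes tested, most of which had fewer reads. MT-ND3 had the highest mean, from 1034 and 723 CPM, and MT-ND4L the lowest, from 14 and 2 reads. Beside these, the nuclear members held 0.672% and 0.617% of the reads.

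As a check of the label, all 8 B cell markers looked for had reads, from PAX5 with 39.7 and 46.3 CPM to CD74 with 7766 and 8088 CPM. Of 6 genes of other lineages, ALB, HBG1 and GATA1 were at 0. APOA1 had 0 and 1 reads, COL1A1 had 2 and 3, and CD3E had 5 and 16. The libraries were not copies of each other: counts over the 10634 genes differed by a chi-square of 3.27 per gene, and of the members by 3.12. Both are more than counting error alone would give. The exact tests above allow for counting error only, so their p-values may be too small.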

How the data were processed

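The deposited table holds raw read counts per transcript model, as whole numbers without normalization, in 1 count column for each of the 2 replicates. Per the submitters' processing notes, minimap2 and hg38 were used; TALON is named in the table's name, and versions, read filters and annotation release are not given in the sources used here. All 108 known models of the members matched GENCODE 29 (GRCh38) in length and exon number, so positions, types and sequences were taken from there. All count columns were matched to a sample by title.

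Counts were summed over the models of a gene. Genes with at least 10 reads in both libraries together were tested with exact binomial tests, and splits of reads with Fisher exact tests. P-values were adjusted by Benjamini-Hochberg with 0.05 as threshold, in Python 3.11.15 with scipy 1.17.1. The calculations were tried on simulated counts with counting error only, a check that gives no error rate for these libraries. Alternatives were edgeR 4.0.16 TMM scaling, DESeq2 1.42.0 size factors, other read minimums and other model categories. With 3 reads as the limit of a count of 0, the depth allowed 2.21 and 1.99 CPM. The members and lists were chosen with earlier results of these data known. All 36 members are described by role, with full values for those past a threshold, the 3 highest, the 3 lowest and those whose main model is not known. Genes that overlap on a strand, such as AP005263.1, were counted as the authors assigned them.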

Additional observations from a re-analysis of the deposited data

How the results depend on the processing

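Of the 36 members, 4 differed in abundance as reported, where 5.05% of all genes passed. With a minimum of 20 reads 4 did (6.34% of all genes), and with no minimum 3 did (2.78%, NDUFA5 no longer passed). With edgeR TMM scaling 5 did (5.21%, NDUFA12 added), and with DESeq2 size factors 4 did (5.01%). Over known models only 8 did (NDUFA1, NDUFA2, NDUFA9, NDUFA13, NDUFB1, NDUFB10, NDUFS1 and NDUFS6), where 1042 of 5528 genes passed in place of 537 of 10634, and without genomic models 2 did (NDUFB10 and NDUFS6), with 8.26% of all genes. The NDUFA5 log2 ratio was 0.65 over known models and 0.61 without genomic ones, and that of NDUFV2 was -0.16 and -0.30, none of which passed, nor did -0.04 for NDUFV2 summed with AP005263.1. The members' share of the reads was 0.998% over known models and 0.729% without genomic ones. Counting known, ISM, NIC and NNC models together, 11 of 36 members tested differed in use of their main model in place of 3 of 29, where 21.7% of all genes passed in place of 8.90%, and the median share of that model was 76.4%. The suffix share was 82.9% over ISM models with at least 5 reads. The ISM split passed for 13 of 34 members with a minimum of 20 reads (40.3% of all genes) and for 12 of 36 when known reads were set against all others (24.1%), in place of 11 of 35 (30.4%, both directions). The cause of these shifts was not tested.

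With each library left out in turn, the members' share of reads was 0.617 to 0.672%, the known share 75.1 to 82.0%, the ISM share 11.2 to 17.7%, the suffix share 79.5 to 80.9% and the median share of the main model 92.7 to 96.2%. The tests need both libraries. No paired analysis was possible because the 2 replicates form 1 group. Few known reads limit the precision for some members: NDUFS8 had 1 and 0, NDUFC1 12 and 12, NDUFA5 18 and 26, NDUFS1 28 and 8, and NDUFV3 32 in each library.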

Other observations

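Processed pseudogenes of the members had few reads. Of those named after a member, 5 had a read, with 22 reads in replicate 1 and 35 in replicate 2 in all, and NDUFV2P1 had the most, 13 and 26. NDUFV2 itself had 342 and 294 reads, and whether reads were exchanged between the pair was not tested.

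Overlap with other genes was common among the members. In GENCODE 29, 9 members overlap a gene with reads on the same strand and 16 overlap one on the opposite strand. On the same strand, NDUFS3 overlaps PTPMT1 (114 and 124 reads) and NDUFB2 overlaps ADCK2 (36 and 32 reads), and the readthrough gene NDUFC2-KCTD14 had 5 reads in each library. On the opposite strand, NDUFS1 with 79 and 87 reads overlaps EEF1B2, a translation elongation factor gene with 2675 and 2921 reads, and NDUFA7 with 214 and 212 reads overlaps RPS28 with 369 and 648. Direct RNA reads carry their strand; whether the authors' counting used it is not given in the sources used here.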
